A study of Mus musculus with 6 samples.

Results

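The matrix metalloproteases (MMPs), the ADAM and ADAMTS proteases, the ADAMTS-like proteins and the tissue inhibitors of metalloproteases (TIMPs) were followed in 3T3 cells treated with baicalin. Members were taken by gene name, as every row of the table named Mmp, Adam or Timp followed by a digit, or starting with Adamts, with pseudogenes marked -ps left out. This gave 84 of 54532 genes, of which 23 are Mmp, 33 Adam, 19 Adamts, 5 Adamtsl and 4 Timp genes. RNA was sequenced from 6 samples of the mouse line 3T3, labelled adipocyte and WT. Of these, 3 received the solvent DMSO and 3 received 200 µM baicalin, a plant flavone glucuronide. The sources used here give neither the subline nor the protocol that made the cells into adipocytes nor the length of treatment. No label says that each sample was a culture of its own, and if it was not, the p-values reflect only a technical spread.

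MMPs are zinc-dependent enzymes that cells secrete, or hold at their surface, as inactive proenzymes and that cut collagens, proteoglycans and other matrix proteins once activated. ADAMs sit in the plasma membrane, where those with an active site release the outer domains of growth factors, cytokines and receptors, and ADAMTS enzymes are secreted and bind to the matrix. TIMPs occupy the active sites of these enzymes. MMP14 at the cell surface, with TIMP2 as a bridge, activates the proenzyme of MMP2, and the pericellular collagenase activity of MMP14 is known to be needed for fat tissue to form.

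Libraries held between 16730594 and 18326874 counted reads, so that a gene with 0 reads in a library could still stand at up to 0.179 CPM (reads scaled to a common library total), a limit that reflects counting error only. The 84 genes took between 1.56% and 1.62% of the reads in DMSO and between 0.903% and 0.937% in baicalin. Of 8 fat cell markers, Fabp4, Lpl, Plin1, Pparg, Adipoq and Cidec had reads in every library and Lep and Slc2a4 were near 0 in all. The 6 that could be tested were all lower in baicalin, most of all Adipoq (11.7-fold) and Cidec (9.95-fold). Carried by Lpl and Fabp4, the summed level of the 8 ran from 1801 to 1975 CPM in DMSO and from 799.9 to 815 CPM in baicalin. Its part in the results that follow was not tested. The 6 fibroblast markers were abundant in both groups. Their summed level ran from 15403 to 15994 CPM in DMSO and from 12129 to 12492 CPM in baicalin. They did not move together, since Thy1 (2.13-fold) and Vim (1.28-fold) were higher and Pdgfra (2.18-fold), Col1a1, Col1a2 and Pdgfrb were lower. The 4 endothelial and 4 epithelial markers together had no gene with enough reads to test, and of 4 smooth muscle markers only Acta2 did (lower in baicalin). Every baicalin library had reads for fewer genes than any DMSO library, where 21374, 21020 and 21303 genes had reads. Baicalin replicate 1 had the fewest, 19057 against 19589 and 19833 in the other baicalin libraries. The cause of this difference between the groups was not tested.

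The single comparison of the series asks how baicalin changes these cells, and here which matrix-cutting enzymes and inhibitors differ. In baicalin the transcripts of the proteases Mmp2, Mmp14, Adamts1 and Mmp11, all abundant, were between 1.83-fold and 2.27-fold lower. Those of Adamts12, Adamtsl4 and Adam12 fell further, and those of Mmp13, Mmp3, Adam8 and the inhibitor gene Timp1 were between 3.05-fold and 14.7-fold higher. Other abundant proteases did not share the fall to this extent. Adam9, Adam15 and Adam17 were between 1.25-fold and 1.30-fold higher, Adam10 was not called and Adamts2 was 1.11-fold lower. Of the 84 genes, 40 had enough reads to test, and 37 of these passed the filter in both groups while 3 (Adamtsl1, Mmp27 and Adam1a) passed through DMSO alone. With edgeR's quasi-likelihood test, which gives every adjusted p below, 14 of the 40 were higher, 23 lower and 3 not called at a Benjamini-Hochberg adjusted p under 0.05. Of all 13728 genes tested 67.7% were called in either direction. The members called higher are 35.0% of the 40, beside 33.6% of all genes, and those called lower are 57.5%, beside 34.1% of all genes. Called changes of 2-fold or more were found upward in 6 members, beside 5.24% of all genes, and downward in 10, beside 9.71%. The median log2 fold change of the 40 was -0.32, and that of all tested genes was 0.00. In bulk RNA, fewer cells of a kind and less RNA per cell cannot be told apart.

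The CPM values are scaled by TMM factors, which assume that most genes keep their share of the RNA. With library size as the only scaling the median of all genes shifted to -0.12. Of all called genes 37.5% were then higher instead of 49.7%, and of the called members 34.2% instead of 37.8%. Among members the sign of the fold change turned with that scaling only for Adam23. The 3 CPM values of baicalin all lay above or all below those of DMSO for 38 of the 40 tested members, 14 above and 24 below. Of all tested genes 70.2% were apart in this way, 35.1% above and 35.1% below.

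**Figure D1:**
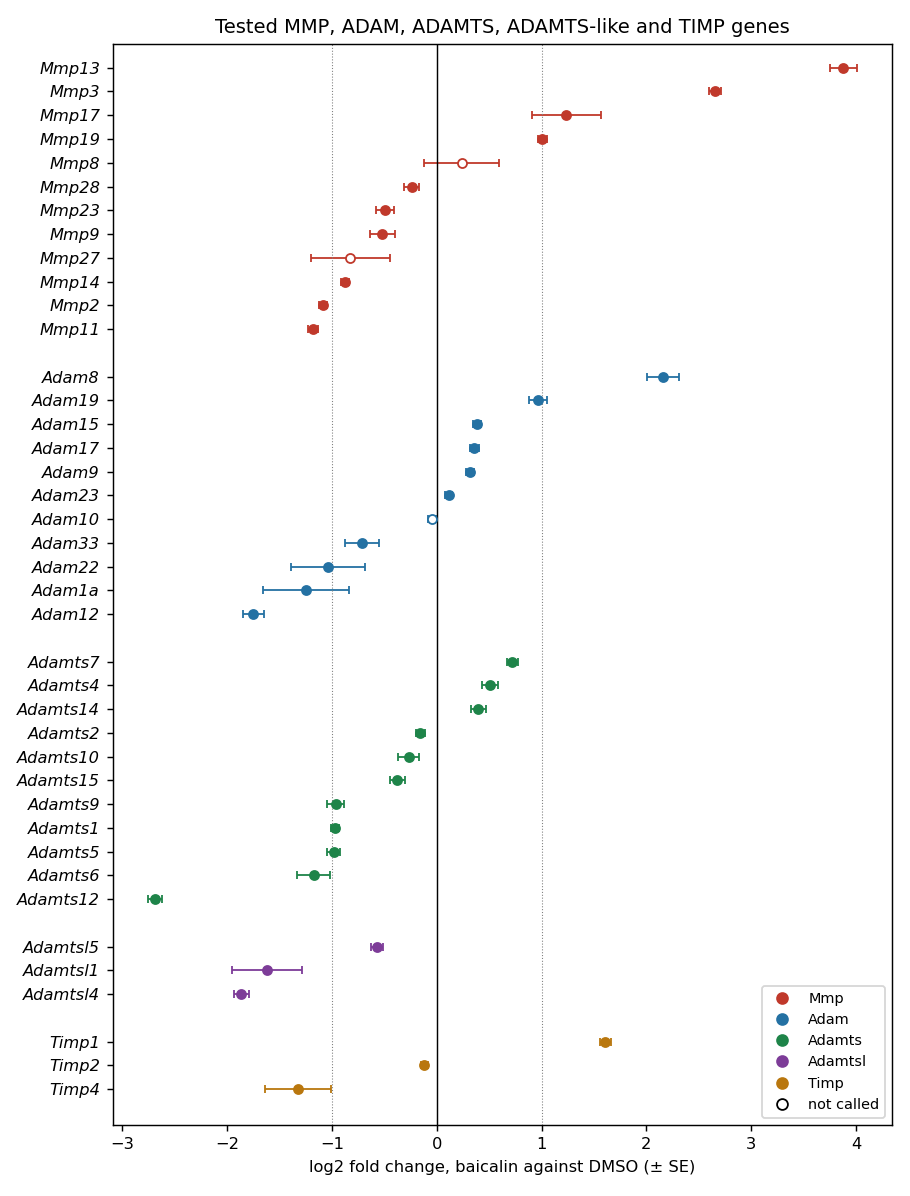
Log2 fold change (baicalin against DMSO, horizontal axis, ± SE) of the 40 tested genes, grouped and coloured by family, with filled points for called genes and open points for the 3 that were not called, and dotted lines at 2-fold. Mmp13 (3.88) lies farthest to the right and Adamts12 (-2.69) farthest to the left, and all 3 Adamtsl genes lie left of 0.

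Of 12 tested MMP genes 4 were higher, beside 33.6% of all tested genes, 6 were lower, beside 34.1%, and 2 were not called. Mmp2, gelatinase A (ENSMUSG00000031740, chromosome 8, 92827291 to 92853420), which degrades denatured collagen and basement membrane collagen, was the most abundant of the 84 genes. Its level per gene length was 2644 ± 78.9 FPKM in DMSO (SD, n = 3), the fifth highest of all genes, and 1259.9 ± 63.8 FPKM in baicalin (SD, n = 3). It had 8952, 9003 and 8547 CPM in the DMSO libraries and 4359.6, 3984 and 4157 CPM in the baicalin libraries, so that every baicalin library lay far below every DMSO library. The fall was 2.12-fold (log2 fold change -1.08, SE 0.04, adjusted p = 1.91e-30). Of the scaled reads of the 84 genes, not corrected for gene length, Mmp2 alone made up 57.9% in DMSO and 43.4% in baicalin.

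Mmp14 (ENSMUSG00000000957, chromosome 14, 54431612 to 54445364), the membrane-bound activator of MMP2, fell along with it. Its CPM values were 1647, 1659 and 1601 in DMSO and 953, 862 and 859.5 in baicalin, with no overlap (1.83-fold lower, log2 fold change -0.88, SE 0.04, adjusted p = 3.67e-26). Mmp11, stromelysin-3, which is activated inside the cell by furin, had 198, 214 and 188 CPM in DMSO and 92.6, 85.1 and 86.7 CPM in baicalin (2.27-fold lower, adjusted p = 1.75e-27). Both were clearly lower in each baicalin library than in any DMSO library.

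The other MMPs that fell were less abundant than these and fell less. Mmp9, gelatinase B, had 11.1, 12.3 and 13.7 CPM in DMSO and 7.15, 9.71 and 9.02 CPM in baicalin (1.43-fold lower, adjusted p = 0.00021), the lowest value being that of baicalin replicate 1. Mmp23, a membrane-anchored member, was 1.41-fold lower. Mmp28, epilysin, was 1.18-fold lower (adjusted p = 0.00337), but on leaving out baicalin replicate 2 it missed the threshold (adjusted p = 0.0545). Part of its exons is shared with 1700020L24Rik on the other strand, which has 18.3% as many reads, and since the strand setting of the counting is not known the reads of the 2 genes cannot be told apart there.

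**Figure D2:**
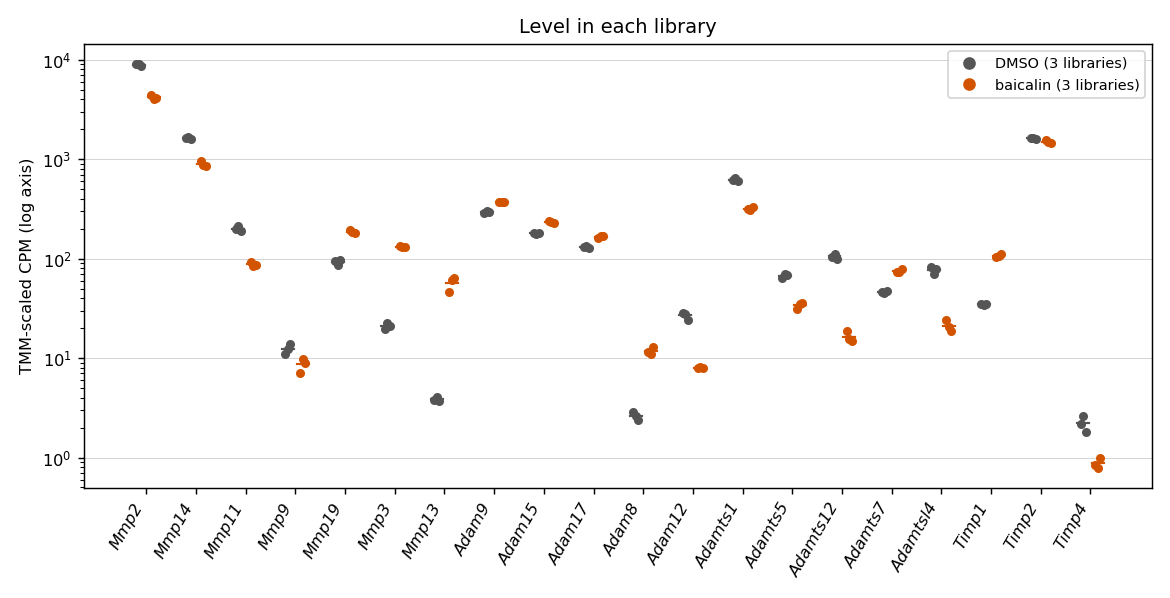
TMM-scaled CPM (log axis) of 20 members in each of the 3 DMSO (grey) and 3 baicalin (orange) libraries, with a bar at each group mean. The groups do not overlap for any of the 20 genes, and the gap is widest for Mmp13 (3.85 against 56.7 CPM on average).

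Mmp13 and Mmp3 rose the most among all members. Mmp13, collagenase-3 (ENSMUSG00000050578, chromosome 9, 7272514 to 7283331), which cuts fibrillar collagen, had 3.79, 4.06 and 3.72 CPM in DMSO and 46.2, 60.6 and 63.5 CPM in baicalin. Every baicalin library was far above the DMSO libraries, with baicalin replicate 1 the lowest of the 3. The rise was 14.7-fold (log2 fold change 3.88, SE 0.13, adjusted p = 9.70e-15), and on leaving out each library in turn the log2 fold change ranged from 3.80 to 4.02. Mmp3, stromelysin-1 (ENSMUSG00000043613, chromosome 9, 7445822 to 7455975), which cuts many matrix proteins and activates other MMP proenzymes, had 19.6, 22.3 and 21.02 CPM in DMSO and 133, 132 and 131 CPM in baicalin. The 3 baicalin libraries were nearly equal and all well above DMSO (6.30-fold, log2 fold change 2.66, SE 0.06, adjusted p = 3.96e-41).

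Markers of macrophages and other leukocytes, cells that also make MMPs, were read beside these rises. Of 7 such markers Ptprc, Adgre1 and Itgam were near 0 in every library, 2 were called higher (Cd14 and Cd68) and Csf1r and Lyz2 were not called. The summed level of the 7 ran from 24.0 to 26.9 CPM in DMSO and from 104 to 105 CPM in baicalin, nearly all of it Cd14, a lipopolysaccharide co-receptor that fibroblasts also make.

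Mmp13 and Mmp3 lie in a cluster of 10 MMP genes on chromosome 9. Their starts span 420 kb, in the order Mmp13, Mmp12, Mmp1b, Mmp3, Mmp1a, Mmp10, Mmp8, Mmp27, Mmp20 and Mmp7. Apart from Mmp8 and Mmp27, the other genes of the cluster stayed at or near 0. Mmp12, Mmp1a and Mmp1b had at most 2 reads in the 6 libraries together, Mmp20 and Mmp7 had none, and Mmp10, the closest relative of Mmp3, had 6 reads in DMSO and 0 in baicalin. Mmp8, the neutrophil collagenase, was detected, with 0.90 ± 0.06 CPM in DMSO and 1.07 ± 0.29 CPM in baicalin (SD, n = 3 each) and was not called, with a log2 fold change of 0.24 (SE 0.36, adjusted p = 0.564). Mmp27 stood at 1.27 ± 0.15 and 0.71 ± 0.43 CPM and narrowly missed the threshold (log2 fold change -0.82, SE 0.38, adjusted p = 0.0502). Mmp27 passed the filter through DMSO alone, so that only a fall could be called. It was called lower in 6 of the 17 alternative analyses, among them the one without baicalin replicate 2 (log2 fold change -1.40, adjusted p = 0.0065).

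**Figure D3:**
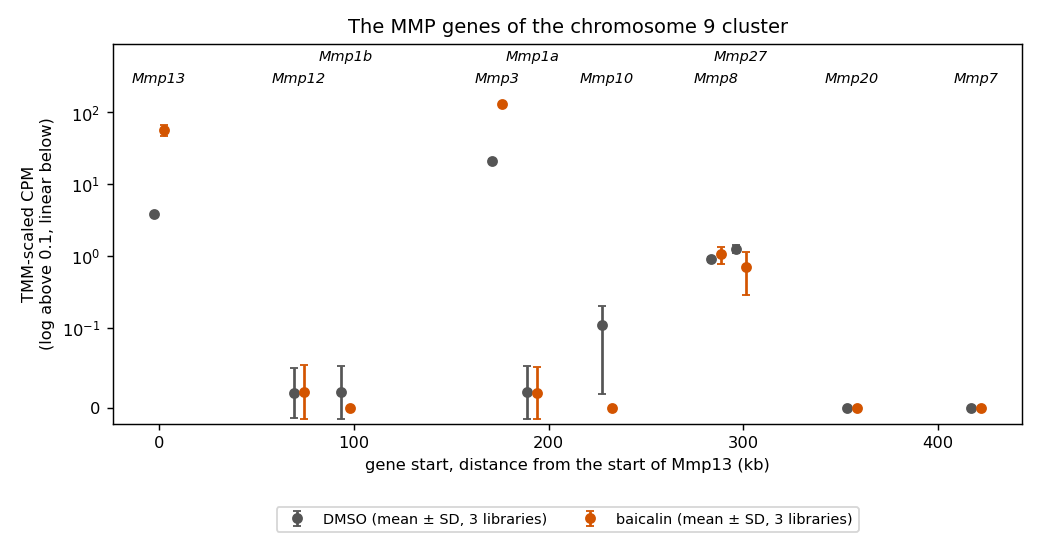
TMM-scaled CPM (mean ± SD of 3 libraries, log axis above 0.1 and linear below) of the 10 MMP genes of the chromosome 9 cluster against the distance of each gene start from that of Mmp13 in kb, with DMSO in grey and baicalin in orange. Mmp13 and Mmp3 stand well above their neighbours and higher in baicalin, and the genes between them are near 0 in both groups.

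Because Mmp13 and Mmp3 are textbook targets of AP-1, the transcription factor made of JUN and FOS proteins, promoters were searched for its site TGACTCA on both strands. RefSeq promoter sequences (GRCm38.p6, the assembly of mm10) from 250 bases before to 50 bases after a transcript start were at hand for 53 of the 84 genes. Members are counted below by gene, while the 32851 promoters searched belong to 27025 genes. The site was found in 5.2% of all these promoters, a share of promoters and not of genes. It covers more genes than the 13728 tested, and no share over tested genes alone was taken. It was found in 3 of the 9 members called higher that had a promoter sequence (Mmp13, Mmp3 and Adam19), in 0 of 14 called lower, in 0 of 3 not called and in 7 of 27 not tested. In the chromosome 9 cluster it stood in the promoters of 7 genes, Mmp13, Mmp12, Mmp1b, Mmp3, Mmp1a, Mmp10 and Mmp7, of which only Mmp13 and Mmp3 had enough reads to test. The match is a description of letters and not of a bound site. The stretches that follow, 80 bases each, show the 3 genes that rose, 2 cluster neighbours with the same letters but almost no reads, and Mmp14, which fell and lacks them. Each reads 5′ to 3′ along the gene's strand, with the site in capitals, and TGAGTCA is the site on the opposite strand.
Mmp13 (chr9:7272424-7272503, plus strand, -90 to -11 from the start): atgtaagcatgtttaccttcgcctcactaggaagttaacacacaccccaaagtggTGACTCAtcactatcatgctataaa
Mmp3 (chr9:7445726-7445805, plus strand, -96 to -17): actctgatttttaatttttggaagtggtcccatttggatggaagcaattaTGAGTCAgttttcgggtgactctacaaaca
Adam19 (chr11:46055803-46055882, plus strand, -181 to -102): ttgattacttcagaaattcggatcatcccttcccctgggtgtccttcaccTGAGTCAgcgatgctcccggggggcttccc
Mmp10 (chr9:7502229-7502308, plus strand, -113 to -34): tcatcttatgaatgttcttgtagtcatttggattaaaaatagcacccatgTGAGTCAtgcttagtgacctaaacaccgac
Mmp1a (chr9:7464018-7464097, plus strand, -123 to -44): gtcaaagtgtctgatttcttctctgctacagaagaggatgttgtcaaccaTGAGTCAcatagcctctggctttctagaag
Mmp14 (chr14:54431508-54431587, plus strand, -90 to -11): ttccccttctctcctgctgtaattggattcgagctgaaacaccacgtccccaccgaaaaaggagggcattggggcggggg

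The site of Mmp13 began at base -35 and that of Mmp3 at base -46, both just upstream of the start, and that of Adam19 at base -131. In Mmp10 and Mmp1a it began at bases -63 and -73. The genes with almost no reads thus carried the same 7 letters about as close to their starts as the genes that rose.

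Outside the cluster 2 further MMPs were higher. Mmp19, a secreted MMP that cuts basement membrane proteins, had 94.0, 85.2 and 97.5 CPM in DMSO and 195, 184 and 179 CPM in baicalin. It was about 2-fold higher in every baicalin library (2.01-fold, log2 fold change 1.01, SE 0.05, adjusted p = 6.78e-24), and Tmem198b, which shares part of its exons on the other strand, has 11.4% as many reads. Mmp17, which is held at the membrane by a lipid anchor, was scarce, with 0.91 ± 0.32 CPM in DMSO and 2.15 ± 0.70 CPM in baicalin (SD, n = 3 each), and 2.36-fold higher (SE of the log2 value 0.33, adjusted p = 0.000826). Summed over the family, MMP transcripts made up 10862 ± 286 CPM in DMSO and 5581 ± 242 CPM in baicalin (SD, n = 3 each), a total that mostly follows Mmp2, which held 81.3% of these reads in DMSO and 74.7% in baicalin, with no correction for length.

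The 3 TIMP genes that could be tested did not move together, with Timp1 higher and Timp2 and Timp4 lower. Timp1, a secreted inhibitor of most MMPs that also acts as a growth factor (ENSMUSG00000001131, chromosome X, 20870166 to 20874735), had 35.2, 34.3 and 35.1 CPM in DMSO and 103, 106 and 109.9 CPM in baicalin. The baicalin libraries were all about 3 times as high as the DMSO libraries (3.05-fold, log2 fold change 1.61, SE 0.05, adjusted p = 9.95e-33). Timp1 lies inside an intron of the opposite-strand gene Syn1, which had 417 reads against its 7383.

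Timp2, the partner of MMP14 in the activation of MMP2, was by far the most abundant inhibitor per gene length, at 418 ± 6.39 FPKM in DMSO and 389 ± 14.2 FPKM in baicalin (SD, n = 3 each), where Timp1 stood at 39.6 ± 0.59 and 122 ± 3.44 FPKM. Its CPM values were 1622, 1629 and 1588 in DMSO and 1540.2, 1477 and 1448 in baicalin. The groups did not overlap, but the fall was small (1.08-fold, log2 fold change -0.12, SE 0.04, adjusted p = 0.00467) and was not called without baicalin replicate 3 (adjusted p = 0.118) or without a count filter (adjusted p = 0.0652). Of the trio that acts on pro-MMP2 at the cell surface, Mmp2 and Mmp14 thus fell by 2.12-fold and 1.83-fold and Timp2 by 1.08-fold in transcript level.

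Timp4 was lower, with 2.16, 2.63 and 1.81 CPM in DMSO and 0.84, 0.79 and 0.99 CPM in baicalin (2.503-fold, log2 fold change -1.32, SE 0.31, adjusted p = 0.00022). It shares 90 bp of exon with Syn2 on the other strand, which has more reads (1071 against 164) and was itself lower (log2 fold change -0.57), so this value is uncertain. Timp3, which binds to the matrix and inhibits ADAM17 and the ADAMTS enzymes as well as MMPs, had 5 reads in DMSO and 2 in baicalin and could not be tested. Its exons overlap those of Syn3, which had 12 reads.

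Of 11 tested ADAM genes 6 were higher (54.5%, beside 33.6% of all tested genes), 4 lower (36.4%, beside 34.1%) and 1 was not called. The 4 include Adam1a, which passed the filter through DMSO alone. The median log2 fold change of the 11 genes was 0.11. Summed over the family, ADAM transcripts made up 1385 ± 20.8 CPM with DMSO and 1586 ± 12.8 CPM with baicalin (SD, n = 3 each). Of the 8 tested ADAMs classed here as having a protease active site 5 were higher (62.5%) and 2 lower (25.0%), beside the same shares of all tested genes. Adam1a, called lower, was not classed by active site and is not among these 8.

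Adam17, the sheddase of TNF and of ligands of the EGF receptor, had 129.7, 132 and 127 CPM in DMSO and 161, 171 and 168 CPM in baicalin. All 3 baicalin libraries were above all DMSO libraries (1.28-fold, log2 fold change 0.36, SE 0.04, adjusted p = 1.24e-10). Iah1, which shares 311 bp of exon on the other strand, has 23.6% as many reads as Adam17 and was lower (log2 fold change -0.45). Adam10, the sheddase of Notch receptors and cadherins, had 195, 197 and 201 CPM in DMSO and 192, 189 and 194 CPM in baicalin. The groups nearly touched and Adam10 missed the threshold (log2 fold change -0.04, SE 0.04, adjusted p = 0.326). Once trends on exon length and GC content were removed from each library, the sign turned and the gene was called higher (0.15, adjusted p = 0.000587), and with library size as the only scaling it was called lower (-0.17, adjusted p = 0.00011).

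Adam9 and Adam15, membrane proteases that also bind integrins, both rose moderately. Adam9 had 289, 299 and 297 CPM in DMSO and 368, 368 and 369 CPM in baicalin (1.25-fold, adjusted p = 1.17e-10). Adam15 had 181, 177 and 179 CPM in DMSO and 240.4, 233 and 227 CPM in baicalin (1.30-fold, adjusted p = 2.86e-12). In both, the spread within a group was much smaller than the distance between the groups.

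The largest rise of the family was that of Adam8, best known from leukocytes (ENSMUSG00000025473, chromosome 7, 139978932 to 139992562). It had 2.87, 2.63 and 2.41 CPM in DMSO and 11.5, 10.9 and 12.9 CPM in baicalin (4.46-fold, log2 fold change 2.16, SE 0.15, adjusted p = 3.32e-18). Of the 7 leukocyte markers Ptprc, Adgre1 and Itgam were near 0 in both groups, Csf1r and Lyz2 were not called, and Cd14 (4.70-fold) and Cd68 (2.12-fold) were higher, in the direction of Adam8. Their part in this rise was not tested. Adam8 shares 46 bp of exon with Gm16201 on the other strand, which has 21.7% as many reads and was not called. Adam19, meltrin beta, was 1.96-fold higher (15.2 ± 1.64 against 29.8 ± 1.85 CPM, SD, n = 3 each, adjusted p = 1.56e-14).

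Adam12, meltrin alpha, a protease linked to muscle and fat cell formation, fell the most in the family (ENSMUSG00000054555, chromosome 7, 133883199 to 134232146). Its CPM values were 28.6, 27.5 and 24.4 in DMSO and 7.87, 8.13 and 7.91 in baicalin. The 3 baicalin libraries were close together and far below DMSO (3.36-fold, log2 fold change -1.75, SE 0.10, adjusted p = 4.21e-22). Adam33 was 1.63-fold lower (adjusted p = 0.000173). Meltrin alpha and meltrin beta therefore differed in direction in the same libraries.

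Adam23 and Adam22, which lack the active-site residues of a protease and serve as adhesion receptors, also differed. Adam23 had 514, 521 and 544 CPM in DMSO and 575.7, 553 and 579.8 CPM in baicalin, a small rise (1.08-fold, log2 fold change 0.11, SE 0.04, adjusted p = 0.00666) that was at -0.01 with library size as the only scaling and at 0.55 without the length and GC trends. Its size therefore depends on the scaling. Adam22 was scarce, at 1.40 ± 0.21 against 0.68 ± 0.12 CPM (SD, n = 3 each), and lower (log2 fold change -1.04, SE 0.36, adjusted p = 0.00909). It was no longer called on leaving out DMSO replicate 3 (adjusted p = 0.0518) or without the length and GC trends (-0.60, adjusted p = 0.142). Adam1a, at 1.07 ± 0.15 against 0.45 ± 0.07 CPM, was called lower (adjusted p = 0.0064), but it passed the filter through DMSO alone, so that only a fall could be called, and its exons overlap those of Mapkapk5 and Tmem116, both with more reads, so its reads are uncertain.

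Of 11 tested ADAMTS genes 8 were lower, beside 34.1% of all tested genes, and 3 were higher, beside 33.6%. The calls of Adamts2 and Adamts10, both among the 8, were lost on leaving out a single library, as given with their values. The median of their log2 fold changes was -0.37, and their summed level went from 1210 ± 20.5 to 772 ± 21.8 CPM (SD, n = 3 each). Among the 5 tested enzymes that cut the large proteoglycans aggrecan and versican, 4 were lower and 1 higher.

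Adamts1, a versican-cutting enzyme and the most abundant of the family (ENSMUSG00000022893, chromosome 16, 85793827 to 85803113), had 619, 647 and 603 CPM in DMSO and 312, 309.6 and 330.3 CPM in baicalin. It was close to 2-fold lower in every library (1.96-fold, log2 fold change -0.97, SE 0.04, adjusted p = 1.49e-28). Adamts5, the main aggrecanase of mouse cartilage, had 63.2, 70.0 and 68.8 CPM in DMSO and 31.0, 35.1 and 36.0 CPM in baicalin (1.98-fold lower, adjusted p = 2.85e-20). Adamts9, which also cuts versican, was 1.95-fold lower (38.2 ± 3.48 against 19.6 ± 1.93 CPM, SD, n = 3 each, adjusted p = 4.09e-15). Once the length and GC trends were removed, these last 2 falls were smaller, at -0.61 and -0.65 on the log2 scale, and remained called. Adamts9 shares exon sequence with A730049H05Rik on the other strand, which has 12.1% as many reads and was lower (log2 fold change -3.53).

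Adamts4, the other major aggrecanase, was 1.42-fold higher (23.8 ± 2.15 against 33.8 ± 0.997 CPM, SD, n = 3 each, adjusted p = 5.20e-08). Its read assignment is uncertain. Adamts15 was 1.30-fold lower.

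The 2 enzymes that cut the cartilage oligomeric matrix protein COMP, relatives of each other, went opposite ways. Adamts12 (ENSMUSG00000047497, chromosome 15, 11064790 to 11349231) had the largest fall of all 40 genes, from 104, 111 and 99.7 CPM in DMSO to 18.6, 15.6 and 14.8 CPM in baicalin. Each baicalin library lay far below any DMSO library (6.43-fold lower, log2 fold change -2.69, SE 0.07, adjusted p = 2.86e-33). Adamts7 had 45.6, 44.6 and 47.0 CPM in DMSO and 74.0, 74.0 and 78.0 CPM in baicalin (1.65-fold higher, log2 fold change 0.72, SE 0.05, adjusted p = 1.36e-17). Over 122 bp the exons of Adamts7 lie opposite those of Tbc1d2b, with 31809 reads against 6363, so its value is uncertain, and Tbc1d2b was slightly lower (log2 fold change -0.12).

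The procollagen N-proteinases, which trim the amino ends of fibrillar procollagens, changed little. Adamts2 had 215, 213 and 225 CPM in DMSO and 201, 185 and 201 CPM in baicalin (1.11-fold lower, log2 fold change -0.15, adjusted p = 0.000893), which missed the threshold on leaving out baicalin replicate 2 (adjusted p = 0.0521) and without the length and GC trends (adjusted p = 0.0604). Adamts14 was 1.32-fold higher (adjusted p = 3.33e-06). Adamts3 had 3 reads in all.

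Adamts6 and Adamts10, which act on fibrillin microfibrils, were both lower. Adamts6 had 9.09, 10.1 and 11.4 CPM in DMSO and 3.07, 5.47 and 4.94 CPM in baicalin (2.25-fold lower, log2 fold change -1.17, SE 0.16, adjusted p = 1.24e-08). Adamts10 had 20.02, 19.0 and 19.8 CPM in DMSO and 13.0, 17.5 and 18.2 CPM in baicalin (1.204-fold lower, adjusted p = 0.0145). In both, baicalin replicate 1 was the lowest library, and without it Adamts10 was not called (log2 fold change -0.12, adjusted p = 0.268, and 0.0573 without DMSO replicate 1) while Adamts6 was at -0.95 and still called.

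The ADAMTS-like genes encode matrix proteins built like ADAMTS enzymes but without a protease domain, and 3 of the 5 were tested. Adamtsl4, which binds fibrillin microfibrils, had 82.6, 70.6 and 77.7 CPM in DMSO and 23.9, 20.7 and 18.9 CPM in baicalin (3.64-fold, log2 fold change -1.86, SE 0.07, adjusted p = 1.48e-22). Adamtsl5 had 64.1, 64.5 and 62.9 CPM in DMSO and 42.7, 42.9 and 43.3 CPM in baicalin (1.48-fold, adjusted p = 2.31e-13). Both fell, and the groups were narrow and far apart in both genes. Adamtsl1, punctin, which passed the filter through DMSO alone so that only a fall could be called, was scarce, with 1.57, 2.34 and 2.57 CPM in DMSO and 0.60, 0.56 and 0.93 CPM in baicalin (3.07-fold, log2 fold change -1.62, SE 0.335, adjusted p = 3.29e-05).

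**Figure D4:**
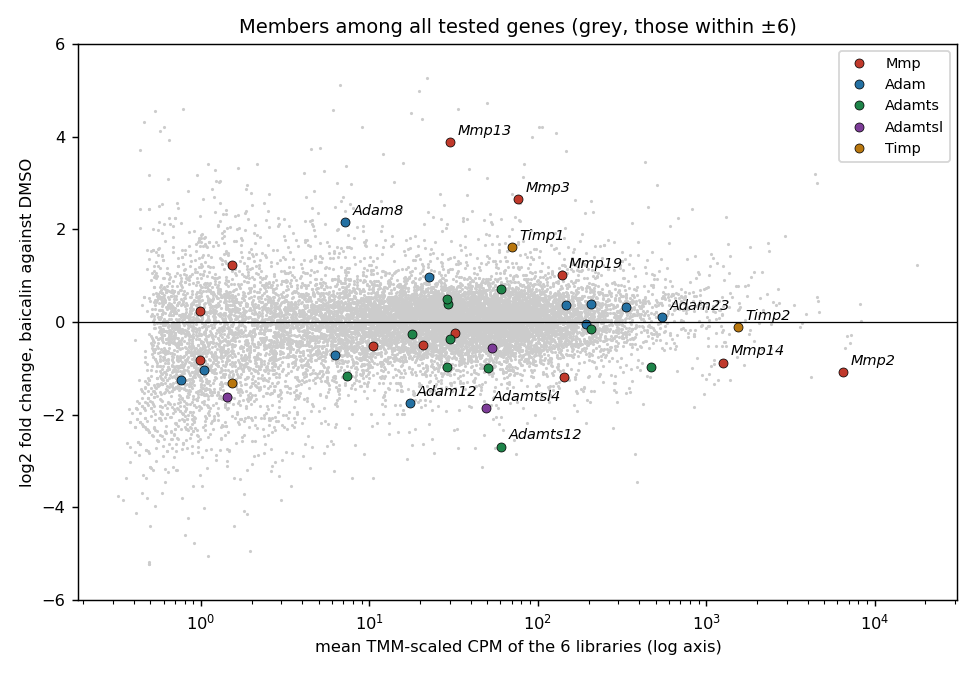
Log2 fold change (baicalin against DMSO) against the mean TMM-scaled CPM of the 6 libraries (log axis) for the tested genes within ±6 (grey points) and the 40 tested members (coloured by family). Mmp2, Mmp14 and Timp2 lie at the right end of the range, Mmp2 and Mmp14 below 0, and the largest rises, of Mmp13 and Mmp3, are of genes in the middle of the range of CPM, which is not corrected for gene length.

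The remaining 44 genes could not be tested. Of these, 19 had no read in any library: Mmp7, Mmp16, Mmp20 and Mmp25 among the MMPs, Adamts13, Adamts18 and Adamts19 among the ADAMTS genes, and 12 ADAM genes, among them Adam3, Adam18, Adam24 and Adam29. The other 25 had between 1 and 46 reads in the 6 libraries together. The highest was Adam32 with 31 reads in DMSO and 15 in baicalin, followed by Adam11 (11 and 21), Mmp15 (15 and 16) and Adam21 (22 and 7). Transcripts of Mmp24, a membrane-type MMP, were at 7 reads in DMSO and 0 in baicalin, and its exons overlap those of the far more abundant BC029722. Of the 6 membrane-type MMPs only Mmp14 and Mmp17 were tested.

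Genes that activate, inhibit, assist or serve as substrates of these proteases were read from 6 lists. Among 5 tested activating proteases and their receptors 1 was higher, beside 33.6% of all tested genes, and 2 were lower, beside 34.1%. Furin, the convertase that removes the propeptides of MMP14, MMP11 and many ADAM and ADAMTS proenzymes, stood at 183 ± 7.58 CPM with DMSO and at 179.8 ± 5.92 CPM with baicalin (SD, n = 3 each) and was not called (log2 fold change -0.03, adjusted p = 0.557), with a sign that depended on the settings. The plasminogen activators Plat (148 ± 2.64 against 95.1 ± 6.97 CPM, 1.56-fold, adjusted p = 1.58e-17) and Plau (5.02 ± 1.34 against 3.05 ± 0.63 CPM, adjusted p = 0.00186) were lower. Their receptor gene Plaur, which binds the protease made from Plau, was 1.91-fold higher (5.78 ± 0.54 against 11.1 ± 1.04 CPM, adjusted p = 1.42e-08).

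Of 6 tested genes on the list of other inhibitors, clearance receptors and inducers 4 were higher (Serpine2, Tfpi2, Lrp1 and Bsg), beside 33.6% of all tested genes, and 1 was lower (Reck), beside 34.1%. Reck, a membrane-anchored inhibitor of MMP2, MMP9 and MMP14, fell from 101 ± 0.61 to 61.3 ± 2.25 CPM (SD, n = 3 each, 1.65-fold, adjusted p = 6.75e-19). The inhibitor genes Serpine2 (2.61-fold, adjusted p = 2.36e-05) and Tfpi2 (1.93-fold, adjusted p = 0.0288) were scarce and higher. With DMSO replicate 2 or 3 left out, Tfpi2 was not called (adjusted p = 0.102 and 0.0545), nor with baicalin replicate 1 or 2 left out (adjusted p = 0.0857 and 0.0905). Lrp1, an endocytic receptor that clears MMPs and their inhibitors, was 1.46-fold higher, and Bsg, basigin, a surface protein that induces MMPs in neighbouring cells, was 1.88-fold higher.

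**Figure D5:**
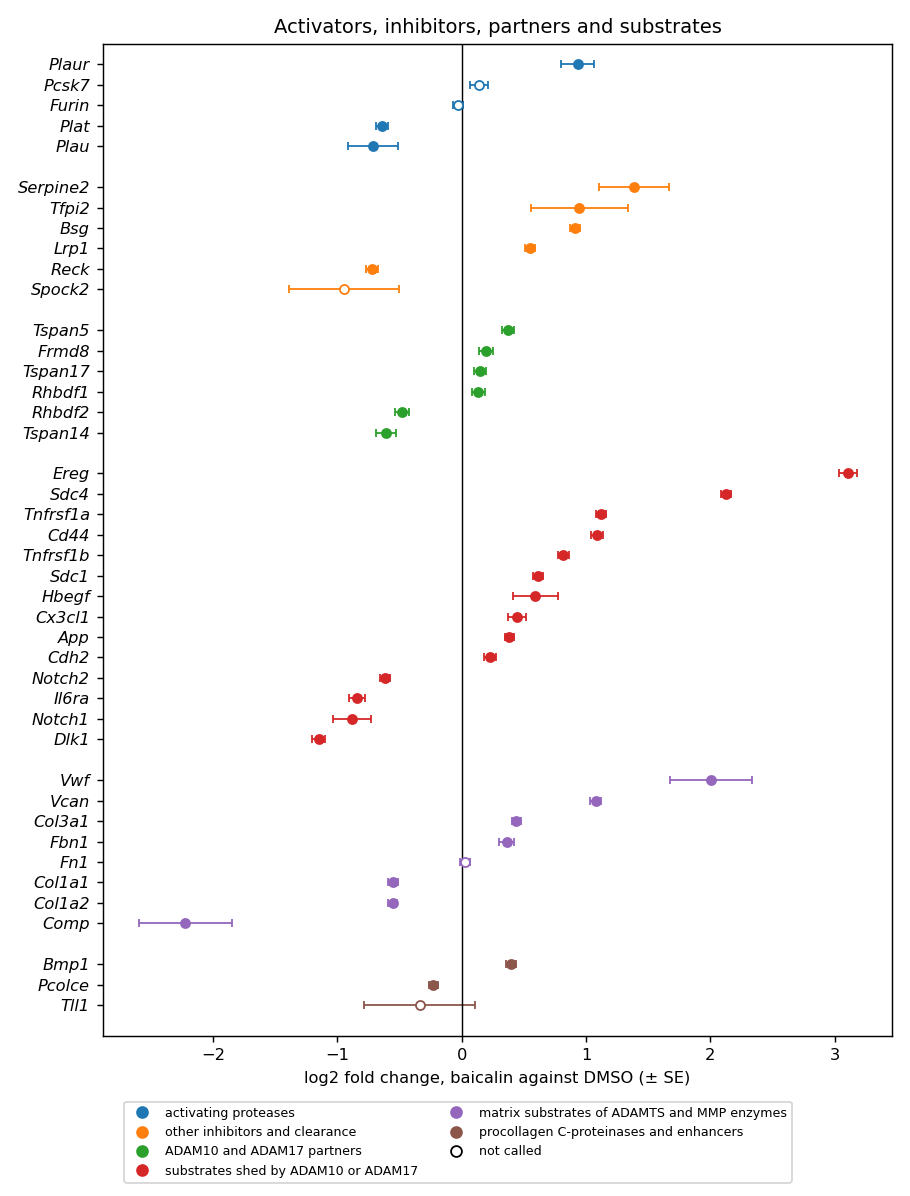
Log2 fold change (baicalin against DMSO, horizontal axis, ± SE) of the 42 tested genes of the 6 lists of activators, inhibitors, partners and substrates, coloured by list, with open points for genes that were not called. Ereg (3.11), Sdc4 (2.13) and Vwf (2.01) lie farthest to the right and Comp (-2.22) farthest to the left.

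The partners that carry ADAM10 and ADAM17 to the cell surface were mixed. Of 6 tested genes 4 were higher, beside 33.6% of all tested genes, and 2 lower, beside 34.1%. However, only 1 was still called higher with library size as the only scaling or without the length and GC trends. Rhbdf2 and Rhbdf1 encode the iRhom proteins that ADAM17 needs to mature. Rhbdf2 fell (57.4 ± 3.66 against 41.2 ± 1.91 CPM, SD, n = 3 each, 1.39-fold, adjusted p = 5.81e-10). Rhbdf1 was 1.10-fold higher (adjusted p = 0.0169), which was not called with library size as the only scaling (adjusted p = 0.902) or on leaving out DMSO replicate 1 (adjusted p = 0.166). Tspan5 (1.30-fold higher) and Tspan14 (1.53-fold lower) encode tetraspanins that escort ADAM10.

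Of 14 tested proteins known to be shed by ADAM10 or ADAM17, 10 were higher in transcript level, beside 33.6% of all tested genes, and 4 lower, beside 34.1%, and the median of their log2 fold changes was 0.52. Ereg, which encodes the EGF receptor ligand epiregulin, had 11.2, 10.4 and 9.41 CPM in DMSO and 83.0, 92.1 and 91.9 CPM in baicalin (8.61-fold, adjusted p = 1.77e-39). The syndecan gene Sdc4 was 4.37-fold higher, the TNF receptor gene Tnfrsf1a 2.17-fold and Cd44, the hyaluronan receptor gene, 2.12-fold. Dlk1, which encodes preadipocyte factor 1, a membrane protein that ADAM17 releases and that holds back fat cell formation, fell from 1194.5, 1271 and 1421 CPM to 584, 562 and 604 CPM (2.22-fold, adjusted p = 8.94e-13). The other three that fell were Il6ra, Notch1 and Notch2. Shedding itself was not measured.

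Matrix substrates differed by gene. Of 8 tested, 4 were higher, beside 33.6% of all tested genes, 3 were lower, beside 34.1%, and Fn1, fibronectin, was not called. Vcan, which encodes versican, the proteoglycan cut by ADAMTS1, ADAMTS5 and ADAMTS9, rose from 590.4, 578 and 543 CPM to 1295, 1116 and 1203 CPM (2.11-fold, adjusted p = 4.62e-19). The transcripts of these 3 enzymes were lower, as given above, and those of Adamts4, which also cuts versican and whose read assignment is uncertain, were higher. The collagen I gene Col1a1 was 1.47-fold lower (2891 ± 91.6 against 1971 ± 39.6 CPM, SD, n = 3 each, adjusted p = 6.24e-19) and Col1a2 also 1.47-fold lower, while Col3a1 was 1.36-fold higher. Comp, the substrate named for Adamts7 and Adamts12, was scarce and lower (2.20 ± 0.53 against 0.47 ± 0.32 CPM, adjusted p = 8.29e-07). Of the 3 tested genes for the procollagen C-proteinases and their enhancers, Bmp1 was 1.32-fold higher and Pcolce 1.17-fold lower.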

How the data were processed

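Poly-A RNA was selected from 3 µg of RNA per sample, per the labels' protocols. The deposited read counts are raw, and the authors obtained them with featureCounts 1.5.0-p3, per the series design text. The genome build was mm10, per the submitters' processing notes. The deposited FPKM values scale the same counts to gene length and depth, per the series design text. The sources used here give no aligner, annotation or strand setting.

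All genes that passed filterByExpr entered 1 edgeR fit (version 4.0.16, in R 4.3.3), a robust quasi-likelihood model of treatment with TMM scaling, and Benjamini-Hochberg adjustment ran over the 13728 genes. FPKM was used to compare levels of single genes, and shares of summed CPM are shares of scaled reads, not corrected for length. Depth ran from 16730594 to 18326874 reads, and within-group pairs differed by more than sampling noise (chi-square per degree of freedom from 2.83 to 4.35), so no library was counted as a duplicate. The fit was checked on simulated counts of 13728 genes, of which 13528 were left unchanged. There it called 36.0% of 1.2-fold, 81.8% of 1.5-fold, 91.5% of 2-fold and 93.2% of 4-fold changes and 0.20% of unchanged genes. In the data 67.7% of tested genes were called, far more than were changed in the simulation, so these rates may not hold there. Gene coordinates and exon overlaps come from GENCODE M21, on the assembly of mm10. It holds 54495 of the 54532 identifiers.

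Members and lists were chosen with earlier results of these data known. Values in every library are given for members of at least 5 CPM that passed the test and 2-fold, for the most abundant of each family and for the TIMPs, and for other genes where room allowed. The lists name up to 5 called genes each, with a few fixed genes, and Serpine2, Tfpi2, Comp, Vwf, Fn1, Rhbdf1, Il6ra, Notch1 and Notch2 were named after their values were seen. Some genes are not reported here. Alternatives were DESeq2 1.42.0, limma-voom and limma-trend on FPKM (limma 3.58.1), other scalings and filters, a replicate block and leaving out each library. Removal of trends on exon length and GC content (lowess, span 0.3) was added after seeing the data.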

Additional observations from a re-analysis of the deposited data

How the results depend on the processing

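Of the 40 tested members 28 kept their direction and their side of the threshold under every alternative run on them, and 30 of 664 pairs of member and alternative changed. Members called higher numbered 12 to 15 and members called lower 16 to 25 over the 17 alternatives. The lowest counts were on the log2(FPKM + 1) scale without a filter, where scarce genes change least by construction. Calls lost on that scale were not only of scarce genes. They included those of Timp2 (log2 fold change -0.10 against -0.12), Adam23 (0.12 against 0.11) and Adamts2 (-0.13 against -0.15). Adam23 turned to -0.013 with library size alone, and Adam10 to 0.15 with the length and GC trends removed. Among list genes, Tspan17 turned to -0.14 with the trends removed, Fn1 to -0.10 with library size alone, and Furin to 0.010 without a count filter and 0.024 with the trends removed. Leaving out each library, Furin ranged from -0.058 to 0.00057. The cause of these turns was not tested. ADAM genes called lower numbered 2 on both filtered FPKM scales, where fewer genes are tested, and 1 on log2(FPKM + 1) without a filter, against 4. TIMP genes called lower numbered 1 on all 3 FPKM scales and without a count filter, and 1 to 2 on leaving out each library. Activating proteases called higher numbered 2 without a count filter and on both filtered FPKM scales, and 1 to 2 on leaving out each library, and 1 was called lower on log2(FPKM + 1) without a filter. On the list of other inhibitors, clearance receptors and inducers, genes called higher numbered 2 on both filtered FPKM scales, against 4. The inhibitor genes Serpine2 and Tfpi2, below 1 FPKM in every library, were not tested on those scales. On the same list 2 genes were called lower with library size alone and with the trends removed. Partners of ADAM10 and ADAM17 called higher numbered 1 with library size alone and with the trends removed, against 4.

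Whether the replicate numbers pair the samples is not known. Deviations of same-numbered libraries from their group means correlated at 0.0348, 0.0367 and -0.00239 across genes, and not every library correlated best with its own number. Values this small show no clear shared effect of the number and cannot settle whether the samples were paired. With the replicate block 14 members were called higher and 24 lower, Mmp27 being the gain, all tested genes called higher in baicalin numbered 4661, and all tested genes called lower in baicalin numbered 4730.

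The depth limits the scarce genes, and the 7 tested members of lowest mean level have standard errors from 0.31 to 0.41 on the log2 scale.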

Other observations

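Adamts1 and Adamts5 are neighbours on chromosome 16, 53.1 kb apart, and their falls were of like size (log2 fold changes -0.97 and -0.98), which makes them the only pair of tested members within 200 kb of each other that were both lower. The other such pair called in 1 direction was Mmp13 and Mmp3, 162 kb apart and both higher. Further motifs were counted in the same promoters on both strands. The core of the antioxidant response element, TGACNNNGC, which can overlap the AP-1 letters, stood in 12.4% of all promoters. It was held by 0 of 9 members called higher, 4 of 14 called lower, 0 of 3 not called and 5 of 27 not tested. The core bound by the aryl hydrocarbon receptor, GCGTG, stood in 32.4% of all promoters. It was held by 6 of 9 members called higher, 8 of 14 called lower, 1 of 3 not called and 6 of 27 not tested. Members are again counted by gene and not by promoter. The shares of all promoters cover 27025 genes, more than the 13728 tested, and a share over tested genes alone was not taken. Counts among called members therefore cannot be read as more or less than that of tested genes.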
